A study of Mus musculus with 4 samples.

Results

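The receptors, Smad proteins and nuclear corepressors of transforming growth factor beta (TGF-beta) signalling were described in regulatory T cells sorted by neuropilin-1 (Nrp1). They were given as 10 named genes, which 23 probe sets of the array measured, out of 34945 probe sets listed with a single gene and 45101 in all. They are 10 of the 18193 genes that a probe set was listed with alone. The genes were chosen with their differences between Nrp1-positive and Nrp1-negative cells already known. Those differences are therefore given as a description, with no test. Spleen CD4+ Foxp3+ cells of Balb/c Foxp3 GFP mice, in which GFP reports Foxp3, the lineage factor of regulatory T cells, were sorted into Nrp1-positive and Nrp1-negative cells, with 2 arrays each and 4 in all. No treatment is given for either group. The mice were 4 to 6 weeks old, except for the array titled Nrp1-negative replicate 1, with an age of 4 to 8 weeks. The source name and cell type of that array say Nrp1-positive. It was grouped by its title, and results are also given without it. Where it was counted as Nrp1-positive, Nrp1-negative replicate 2 stood alone in its group, so the replicate number was mixed with the group.

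TGF-beta binds the type II receptor Tgfbr2, a kinase that recruits and activates the type I receptor Tgfbr1, while the coreceptor Tgfbr3 (betaglycan) presents the ligand at the cell surface. The activated type I receptor phosphorylates Smad2 and Smad3, which bind Smad4, enter the nucleus and regulate genes. Smad7 blocks the receptors, and Ski, Skil (SnoN) and Tgif1 repress Smad target genes. In the T cell lineage this pathway restrains effector responses and helps induce Foxp3, and Nrp1 itself has been reported to bind TGF-beta.

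The sort was visible in the RNA. Nrp1 had a scaled intensity of 9344 and 7745 in Nrp1-positive replicates 1 and 2, against 339 and 1223 in Nrp1-negative replicates 1 and 2. The lowest of these, 339, was on the array whose labels conflict. Of 8 T cell and regulatory T cell markers, 7 were past the filter on dim probe sets. These were Cd3d, Cd3e, Cd3g, Cd4 and the regulatory T cell genes Il2ra, Ctla4 and Ikzf2. The Foxp3 probe set was not, with intensities of 2.16 and 19.9 in Nrp1-positive and 4.45 and 36.4 in Nrp1-negative arrays. The arrays of replicate 1 had been scaled by the authors to a trimmed mean near 500.003 and those of replicate 2 to one near 150.001, so they were brought to one trimmed mean. Each difference subtracts the Nrp1-negative from the Nrp1-positive value of log2(intensity + 18.3). A filter kept probe sets at or above the median (percentile 50) of mean level over all 4 arrays, and 17 of the 23 member probe sets, with at least 1 for each gene, passed it. Across the 10200 genes tested, correlations between arrays were 0.980 and 0.984 within a replicate number, and 0.956 for the Nrp1-positive and 0.941 for the Nrp1-negative pair of replicates (genes are not independent replicates). Of 7 myeloid markers, 6 were past the filter, and each of these was higher in replicate 2 in both groups. Siglech, below the filter, was lower, with 76.1 and 14.7 in Nrp1-positive and 79.7 and 47.1 in Nrp1-negative replicates 1 and 2. Most of the summed intensity came from Lyz2, at 1602 and 8504 in Nrp1-positive and 1087 and 8992 in Nrp1-negative replicates 1 and 2. The sum of all 7 moved with the replicate number, at 2413 and 11077 in Nrp1-positive and 1757 and 12355 in Nrp1-negative arrays. So did the ratios of the 3' to the 5' control probe sets, which are read as a sign of RNA quality: for Gapdh they were 1.54 and 0.711 in Nrp1-positive and 1.74 and 0.763 in Nrp1-negative replicates 1 and 2, and for Actb 1.59 and 1.18 in Nrp1-positive and 1.76 and 1.26 in Nrp1-negative replicates 1 and 2. Xist, the RNA of the inactive X chromosome, had 83.2 and 13630 in Nrp1-positive and 4083 and 13058 in Nrp1-negative replicates 1 and 2, so Nrp1-positive replicate 1 stood apart. The Xist difference was -5.34 in replicate pair 1 and 0.06 in replicate pair 2. The 2 arrays of pair 1 were therefore not matched in Xist, which limits what a difference within that pair can show. Nothing in the labels says whether arrays came from separate mice, and with so few arrays the precision of each value is limited. An exact permutation test of 2 arrays against 2 could not give a two-sided p below 0.333.

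The receptor with the clearest separation was Tgfbr3, which was lower in Nrp1-positive cells. Its probe set had an intensity of 455 and 440.3 in Nrp1-positive replicates 1 and 2, against 977 and 1025 in Nrp1-negative replicates 1 and 2. The groups did not overlap, and arrays of one group lay close together. The means were 447 ± 10.2 in Nrp1-positive cells and 1001 ± 34.0 in Nrp1-negative cells (SD, n = 2 each). On the log2 scale the difference was -1.07 in replicate pair 1 and -1.19 in replicate pair 2, with a mean of -1.13 ± 0.08 (SD, n = 2 pairs), which is 0.457 times the Nrp1-negative level. In fits that left out each array in turn it ranged from -1.16 to -1.10, and without Nrp1-negative replicate 1, the array with conflicting labels, it was -1.16. With that array counted as Nrp1-positive the difference was -0.80, and with the pseudocount at the mean array median it was -1.04. A second Tgfbr3 probe set was dim, below the filter, with 8.25 and 2.20 in Nrp1-positive and 7.94 and 19.8 in Nrp1-negative arrays, and carries no comparison. In bulk RNA, fewer cells that express a gene and less RNA per cell cannot be told apart. Markers of CD8 T and NK cells differed in both directions. Of 5 such markers, 4 had a probe set and 3 were past the filter, and the summed intensity of the 4 was 969 and 1421 in Nrp1-positive and 927 and 2081 in Nrp1-negative arrays. Gzma, a granule protease gene, differed by -0.02 and -0.93 and the NK cell receptor gene Ncr1 by -0.40 and -0.74, while the CD8 chain genes Cd8b1, at 0.19 and 0.24, and Cd8a, below the filter, at 0.81 and 1.26, were higher in Nrp1-positive cells. Their part in the Tgfbr3 difference was not tested.

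**Figure D1:**
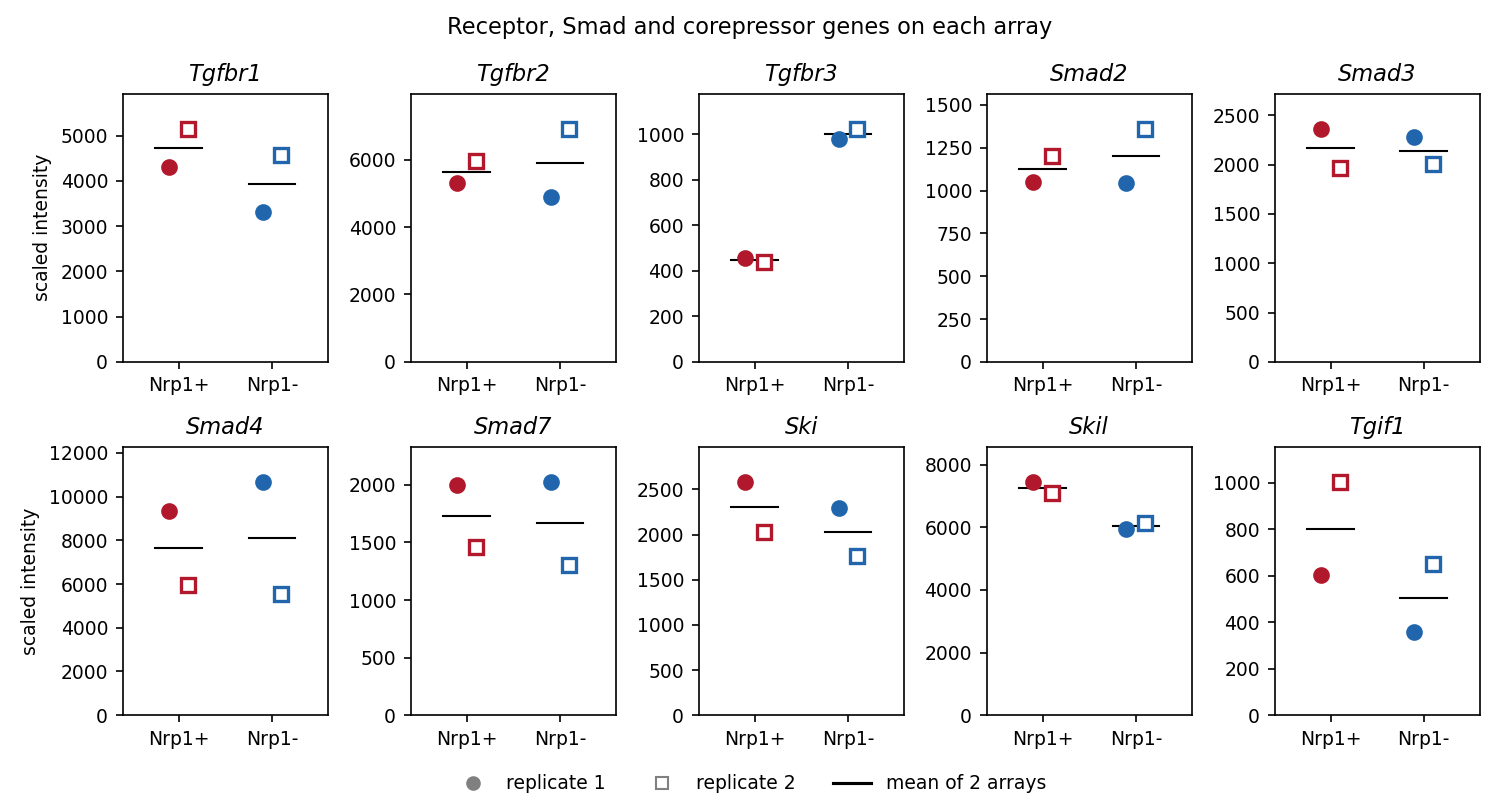
Scaled intensity (linear axis from 0, a scale of its own for each gene) of the probe set that stands for each of the 10 genes, with Nrp1-positive arrays left (red) and Nrp1-negative arrays right (blue), circles for replicate 1, open squares for replicate 2 and lines for the mean of 2 arrays. Tgfbr3 averages 447 in Nrp1-positive cells, against 1001 in Nrp1-negative cells, and Skil separates the groups by less. For the other 8 genes the replicates lie further apart on average than the groups.

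The signalling receptors differed less. Tgfbr1, the type I receptor kinase, had 4315 and 5157 in Nrp1-positive replicates 1 and 2, against 3310 and 4573 in Nrp1-negative replicates 1 and 2. It was higher in Nrp1-positive cells in each replicate pair, by 0.38 and 0.17, but the groups overlapped, since Nrp1-negative replicate 2 exceeded Nrp1-positive replicate 1. The mean difference was 0.28 ± 0.15 (SD, n = 2 pairs). Leaving out Nrp1-negative replicate 1 or replicate 2 gave 0.045 or 0.51, in comparisons that mix the replicate number with the group. With the array of conflicting labels counted as Nrp1-positive the difference turned to -0.12. The other Tgfbr1 probe sets were below the filter, with intensities of at most 78.5 on any array and differences of -0.35 and 0.75 for one and -0.18 and -0.24 for the other.

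Tgfbr2, the type II receptor that binds the ligand, gave different answers at its probe sets. The brightest had 5313 and 5956 in Nrp1-positive replicates 1 and 2, against 4878 and 6921 in Nrp1-negative replicates 1 and 2. The Nrp1-negative arrays enclosed the Nrp1-positive ones, the difference was 0.12 in pair 1 and -0.22 in pair 2, and the mean was -0.05 ± 0.24 (SD, n = 2 pairs). The next brightest had 74.7 and 62.8 in Nrp1-positive replicates 1 and 2, against 156 and 122 in Nrp1-negative replicates 1 and 2. There the groups did not overlap, with differences of -0.91 and -0.79 and a mean of -0.85 ± 0.08 (SD, n = 2 pairs). That probe set was close to the filter, at percentile 54.9 of mean level, where 50 was the minimum. The mean over the 2 Tgfbr2 probe sets past the filter was -0.45. The remaining probe set, at percentile 8.54, had intensities of at most 14.6 on any array. Which transcripts each probe set detects was not analysed here, so the level of Tgfbr2 as a whole is not settled by these values.

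Among the receptor-activated Smads and their common partner, differences were small and mostly changed sign between the replicate pairs. Smad2 had 1047 and 1201 in Nrp1-positive replicates 1 and 2, against 1047 and 1362 in Nrp1-negative replicates 1 and 2. It differed by 0.0007 in pair 1 and -0.18 in pair 2, and with quantile normalisation by -0.0062 and -0.19. Its mean difference was -0.09 ± 0.13 (SD, n = 2 pairs), while its other probe set, at percentile 61.2, gave 0.38 and 0.04. Smad3 had 2365 and 1961 in Nrp1-positive replicates 1 and 2, against 2274 and 2003 in Nrp1-negative replicates 1 and 2. The groups overlapped, and with a mean difference of 0.01 ± 0.06 (SD, n = 2 pairs) Smad3 was the member nearest to 0. Its other probe sets were both below the filter. The dimmest had 78.4 and 31.3 in Nrp1-positive and 20.8 and 9.57 in Nrp1-negative replicates 1 and 2, a mean difference of 1.07, and the other had differences of 0.40 and -0.84. Smad4, shared by the TGF-beta and bone morphogenetic protein branches, had 9353 and 5972 in Nrp1-positive replicates 1 and 2, against 10679 and 5523 in Nrp1-negative replicates 1 and 2. All 3 of its probe sets passed the filter and had mean differences from -0.04 to 0.05, each below 0 in pair 1 and above 0 in pair 2. Smad4 differed far more by replicate number: replicate 2 minus replicate 1 was -0.65 in Nrp1-positive cells and -0.95 in Nrp1-negative cells. The control ratios given above moved with the replicate number too, and their part in this difference was not tested.

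Smad7, the inhibitory Smad that TGF-beta itself induces, also had probe sets that disagreed. The brighter had 1995 and 1457 in Nrp1-positive replicates 1 and 2, against 2027 and 1307 in Nrp1-negative replicates 1 and 2, with differences of -0.02 and 0.15. The dimmer had 419.8 and 411 in Nrp1-positive replicates 1 and 2, against 509 and 474 in Nrp1-negative replicates 1 and 2, with differences of -0.27 and -0.20 and groups that did not overlap. At the brighter probe set the mean difference of 0.07 was smaller than the difference between replicates, where replicate 2 minus replicate 1 was -0.45 in Nrp1-positive cells and -0.63 in Nrp1-negative cells. At the dimmer probe set the mean difference of -0.23 was larger than that between replicates, which was -0.03 in Nrp1-positive cells and -0.10 in Nrp1-negative cells.

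The corepressors Ski, Skil and Tgif1 were each higher in Nrp1-positive cells in both replicate pairs, at all 5 of their probe sets. Tgif1, a homeodomain protein that recruits histone deacetylases to Smad complexes, had the largest difference of the 3. It had 602 and 1005 in Nrp1-positive replicates 1 and 2, against 356 and 649.9 in Nrp1-negative replicates 1 and 2. Within a replicate number the Nrp1-positive array was always higher, by 0.73 and 0.61, but the groups overlapped because replicate 2 was the higher in both groups, by 0.72 in Nrp1-positive cells and 0.83 in Nrp1-negative cells. The mean difference was 0.67 ± 0.08 (SD, n = 2 pairs), or 1.59-fold. It was 0.25 without Nrp1-negative replicate 1, 0.31 without Nrp1-positive replicate 2, 1.03 without Nrp1-positive replicate 1 and 1.09 without Nrp1-negative replicate 2, in comparisons that mix the replicate number with the group. With the array of conflicting labels counted as Nrp1-positive it was -0.11. Of the myeloid markers described above, the 6 past the filter were also higher in replicate 2, while Siglech was lower. The median difference between the groups over the 6 past the filter was 0.51 in pair 1 and -0.27 in pair 2. Of 6 B cell markers, 5 had a probe set, and their summed intensity was 574 and 714 in Nrp1-positive and 419.6 and 609 in Nrp1-negative arrays. The 2 past the filter were higher in Nrp1-positive cells in both pairs, Cd79b by 0.58 and 0.46 and Cd22 by 0.09 and 0.32. Of the 3 below it, Blk was higher, by 2.005 and 0.42, while Cd79a, at -0.22 and -1.23, and Ms4a1, at -0.43 and -0.24, were lower. The part of these cells in the corepressor differences was not tested.

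Skil, which binds Smad complexes and is degraded when TGF-beta signals, was the corepressor whose groups did not overlap, at its brighter probe set only. Its brighter probe set had 7451 and 7081 in Nrp1-positive replicates 1 and 2, against 5931 and 6131 in Nrp1-negative replicates 1 and 2. The means were 7266 ± 261 in Nrp1-positive cells and 6031 ± 142 in Nrp1-negative cells (SD, n = 2 each), a log2 difference of 0.27 ± 0.09 (SD, n = 2 pairs) or 1.20-fold. It ranged from 0.23 to 0.30 with each array left out in turn and was 0.15 with the array of conflicting labels counted as Nrp1-positive. The dimmer Skil probe set differed by 0.03 and 0.19, and its groups overlapped. Ski, the founding member of the same family, had 2585 and 2025 in Nrp1-positive replicates 1 and 2, against 2295 and 1758 in Nrp1-negative replicates 1 and 2. Its differences of 0.17 and 0.20 were nearly equal, and its other probe set gave 0.08 and 0.21. Replicate 2 was lower than replicate 1 in both groups, so the groups overlapped. Leaving out Nrp1-negative replicate 2 or Nrp1-positive replicate 1 gave a Ski difference of -0.0041 or 0.01. These comparisons mix the replicate number with the group.

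Promoter windows from 250 bases before to 50 bases after a transcript start were available from RefSeq (GRCm38.p6). They are shown for Tgif1, the member with the largest positive difference at a probe set past the filter, at its most upstream start, and for Ski, whose 2 probe sets gave like values. Both were searched on both strands for the Smad-binding letters CAGAC (reverse complement GTCTG), which are in capitals.
Tgif1, chr17:70853483-70853782, minus strand: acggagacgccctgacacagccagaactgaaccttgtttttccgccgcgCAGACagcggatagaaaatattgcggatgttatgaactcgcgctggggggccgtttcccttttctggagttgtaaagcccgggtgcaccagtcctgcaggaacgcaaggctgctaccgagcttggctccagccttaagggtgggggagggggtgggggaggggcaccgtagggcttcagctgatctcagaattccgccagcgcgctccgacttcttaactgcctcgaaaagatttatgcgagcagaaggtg
Ski, chr4:155222486-155222785, minus strand: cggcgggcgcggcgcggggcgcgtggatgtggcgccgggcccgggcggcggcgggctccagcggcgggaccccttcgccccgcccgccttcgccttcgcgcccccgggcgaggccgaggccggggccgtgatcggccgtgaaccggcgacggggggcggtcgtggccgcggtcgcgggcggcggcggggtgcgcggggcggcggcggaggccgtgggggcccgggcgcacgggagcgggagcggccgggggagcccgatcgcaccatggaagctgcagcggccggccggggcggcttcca
The Tgif1 window held 1 match and the Ski window 0. The 5 listed Tgif1 start windows held between 0 and 2 matches each, and 49.6% of all 32851 windows of this length held at least 1, so a match is common. The palindrome GTCTAGAC, which contains no CAGAC, was in neither window and in 0.213% of all windows. The share of G and C was 58.0% for Tgif1 and 85.3% for Ski, against a median of 52.7% over all windows, and the windows held 20 and 59 CpG dinucleotides against a median of 7. A match describes letters only, and no binding was measured.

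Over the 10 genes, 4 were higher in Nrp1-positive cells in both replicate pairs (Tgfbr1, Ski, Skil and Tgif1), 1 was lower in both (Tgfbr3), and 5 changed sign (Tgfbr2, Smad2, Smad3, Smad4 and Smad7). Smad2 did so only through a difference of 0.0007 in pair 1. Of all 10200 genes tested, 27.9% were higher in both pairs and 26.0% lower in both. The median difference of the members was 0.04, against 0.0038 for all genes tested, and the median absolute difference was 0.14, against 0.12. A difference of at least 1.5-fold in both pairs was present for Tgif1 (higher) and Tgfbr3 (lower), where 1.11% of all genes were that much higher and 0.745% that much lower. The groups did not overlap for Skil (higher) and Tgfbr3 (lower), and 12.0% and 9.15% of all genes separated in these directions. Over the 17 member probe sets past the filter, 7 were higher and 3 lower in both pairs (28.0% and 23.7% of all 22519), 1 was at least 1.5-fold higher and 2 lower in both (1.08% and 0.724%), and 1 was higher and 3 lower with no overlap (11.5% and 8.57%). These shares stand beside the counts as background, since the genes were chosen on the same contrast.

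**Figure D2:**
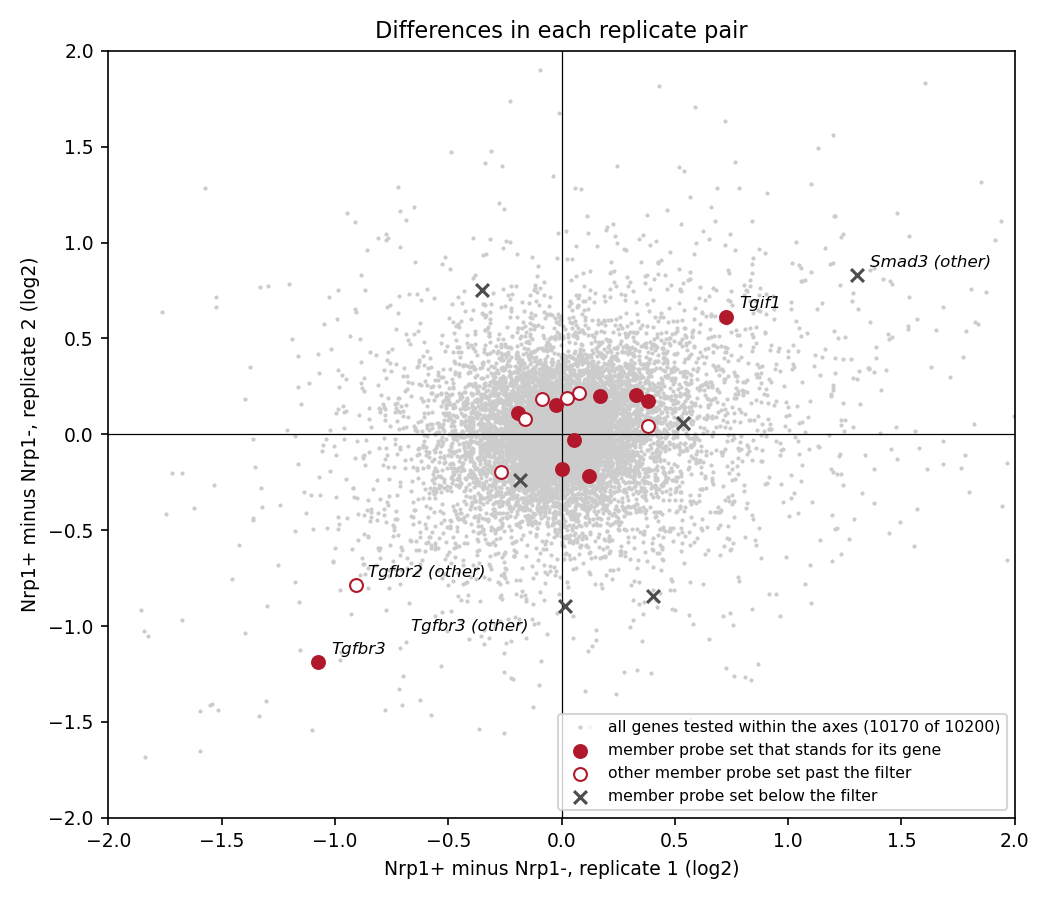
Log2 difference of Nrp1-positive minus Nrp1-negative cells in replicate 1 (horizontal) and replicate 2 (vertical) for all 23 probe sets of the 10 genes (filled red, the probe set that stands for its gene; open red, others past the filter; crosses, below the filter) over the genes tested that lie within the axes (grey). Tgfbr3 and the dimmer Tgfbr2 probe set lie far to the lower left and Tgif1 to the upper right, while the others past the filter are within 0.4 of 0 in both replicates.

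The absolute mean difference between groups was smaller than that between replicates 2 and 1 for 8 of 10 members, all but Tgfbr3 and Skil. That share is close to the 71.8% of all genes tested for which it was smaller. Across replicates, Tgfbr3 changed by -0.045 in Nrp1-positive cells and 0.07 in Nrp1-negative cells, and Skil by -0.07 and 0.05. The largest replicate differences were those of Smad4, at -0.80 on average, Tgif1, at 0.78, and Smad7, at -0.54.

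**Figure D3:**
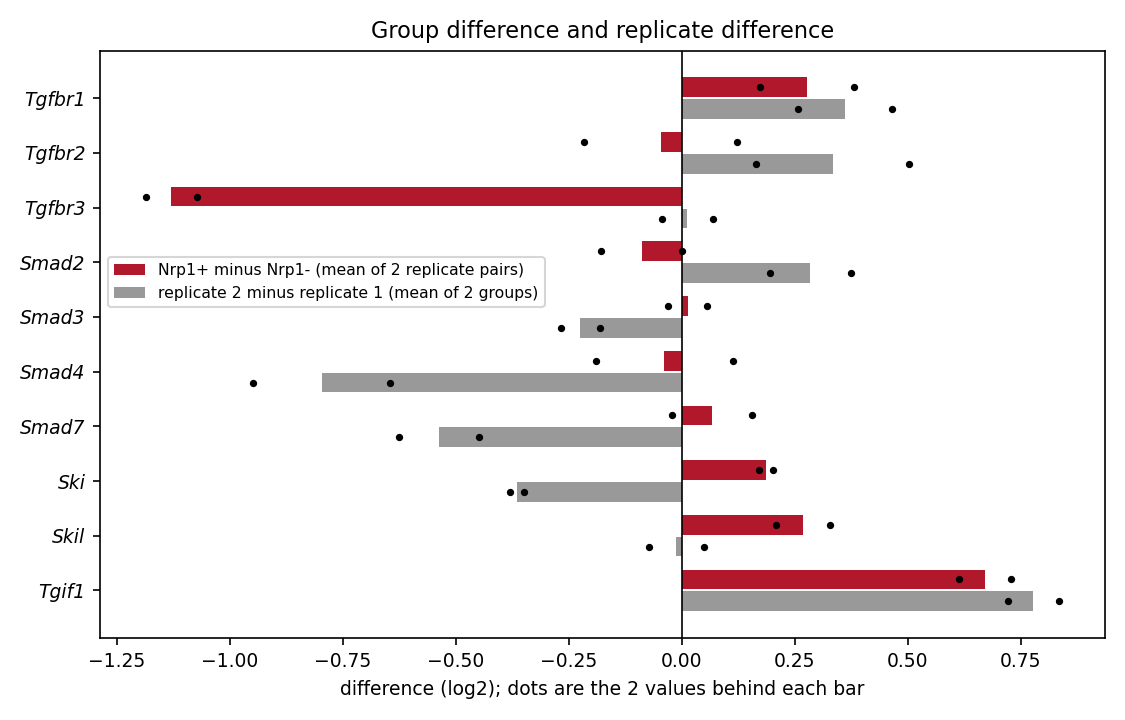
Log2 differences for the 10 genes, as Nrp1-positive minus Nrp1-negative (red bars, mean of 2 replicate pairs) and as replicate 2 minus replicate 1 (grey bars, mean of 2 groups), with dots for the 2 values behind each bar. The red bar is the longer one for Tgfbr3 (-1.13 against 0.01) and Skil (0.27 against -0.01).

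In a fit over all 22519 probe sets past the filter (limma, Benjamini-Hochberg adjusted p below 0.05), 0 probe sets were called without the replicate number in the model, with 243 at an unadjusted p below 0.05. With the replicate number as a block, 46 were called, 28 higher (0.124%) and 18 lower (0.0799%). Counted by gene, 0.127% of 10200 were called lower and 0.167% higher with the block. No call or p is given for the members, which were chosen on this contrast.

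The rest of the pathway was read from 67 other genes grouped by role, of which 45 were tested. In limma 0 of the 45 were called with or without the block, with 5 at an unadjusted p below 0.05 with the block (Bmpr2, Itgae, Itgb8 and Junb higher, Smad1 lower) and 1 without it (Itgb8), where 7.32% and 1.29% of all genes tested had such a p with and without the block. With quantile normalisation and the block, Itgb8 was called. In both replicate pairs 17 of the 45 were higher and 8 lower, against 27.9% and 26.0% of all genes tested, and their median difference was 0.05, against 0.0038.

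Upstream of the receptors, the ligand gene Tgfb1 did not keep one sign, at 0.30 in pair 1 and -0.41 in pair 2. Itgb8, whose integrin releases active TGF-beta from its latent form, had 1168 and 1236 in Nrp1-positive replicates 1 and 2, against 381 and 809 in Nrp1-negative replicates 1 and 2. It was the 1 gene of the 45 with at least 1.5-fold in both pairs, at 1.57 and 0.60. Among other receptors, Bmpr1a, a type I receptor for bone morphogenetic proteins, differed by 0.60 and 0.34, and Bambi, a pseudoreceptor without a kinase, by -0.67 and -0.43. Smad1, which acts in the bone morphogenetic protein branch, differed by -0.27 and -0.48.

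Feedback and target genes differed modestly. Of 12 tested regulators of receptor and Smad activity, 3 were higher and 3 lower in both pairs, against 27.9% and 26.0% of all genes tested. Pmepa1 and Ldlrad4, which encode related membrane inhibitors of Smad activation, differed by 0.40 and 0.11 and by 0.44 and 0.23. Of the nuclear partners of Smads, Sin3a, a corepressor scaffold, differed by 0.41 and 0.08 and the histone deacetylase gene Hdac1 by 0.12 and 0.07. Of the 4 genes of the non-Smad branch, 0 were called in limma with or without the block, and those of largest difference were the ubiquitin ligase gene Traf6, at 0.05 and 0.52, and the kinase adaptor gene Tab2, at 0.07 and 0.29. Of genes known to be raised by TGF-beta, Itgae, the CD103 integrin chain, had 6481 and 6875 in Nrp1-positive replicates 1 and 2, against 3262 and 6682 in Nrp1-negative replicates 1 and 2. Its difference of 0.99 in pair 1 and 0.04 in pair 2 goes with 1 low array, Nrp1-negative replicate 1, whose labels conflict. Junb, an AP-1 transcription factor gene, differed by 0.36 and 0.30, although its level fell by 2.36 on average in replicate 2 relative to replicate 1. Tgfbi, the remaining tested gene of this list, changed sign, at 0.45 in pair 1 and -0.50 in pair 2. Of genes that TGF-beta is known to lower in T cells, the granule protease gene Gzmb differed by -0.26 and -0.32 and the lineage factor gene Gata3 by 0.12 and 0.28.

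**Figure D4:**
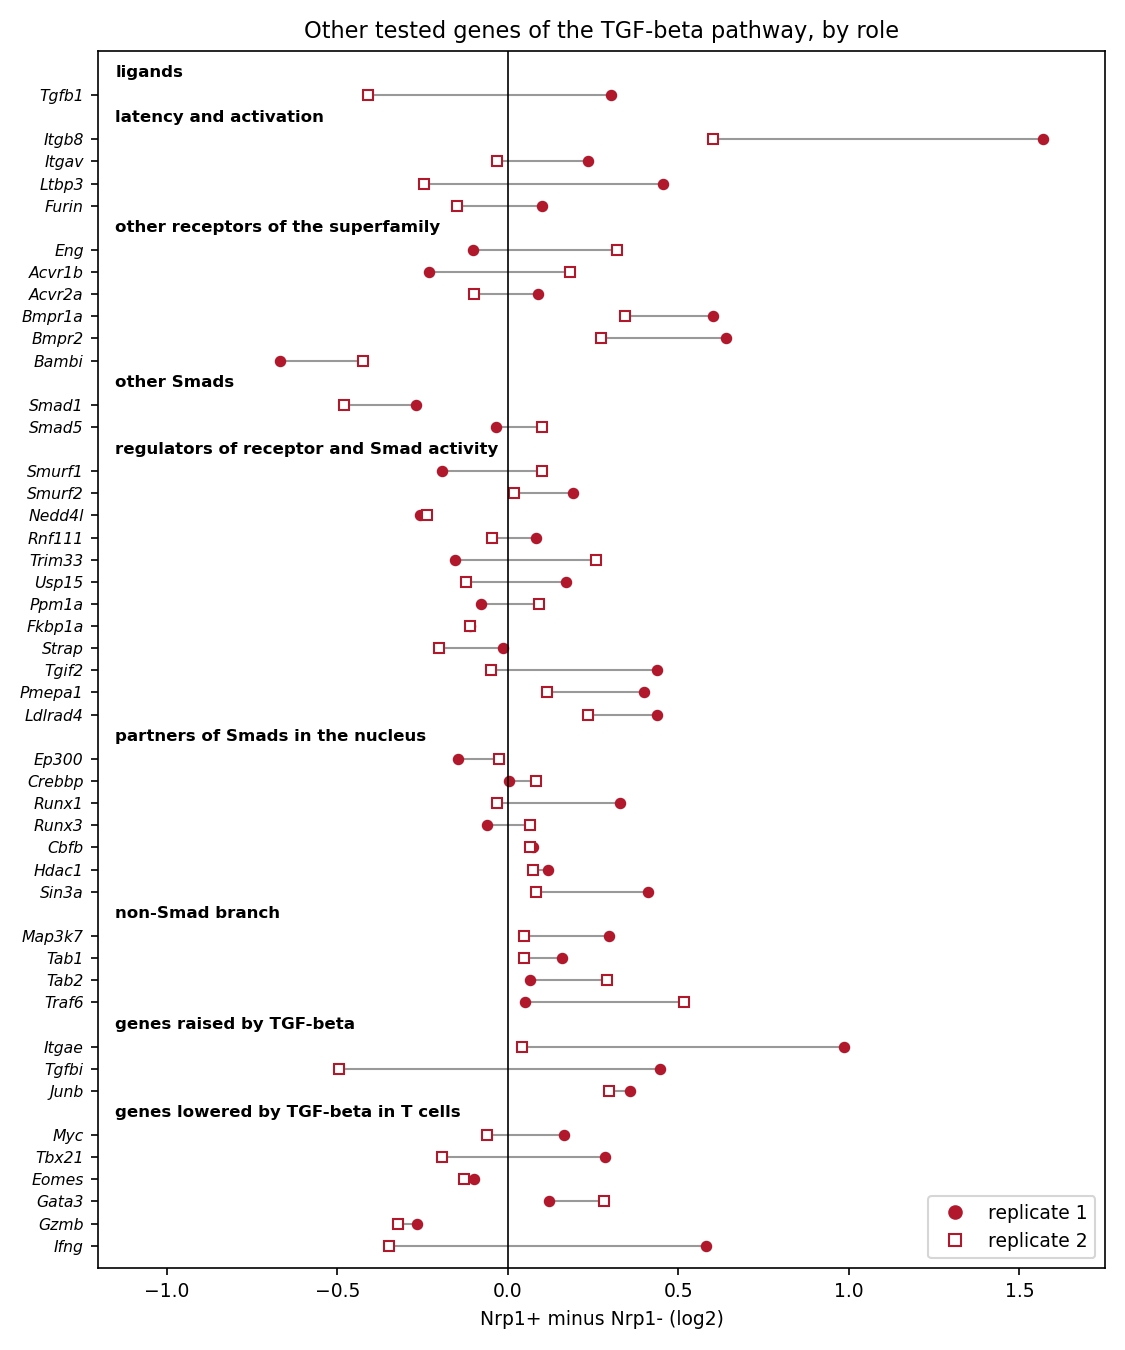
Log2 difference of Nrp1-positive minus Nrp1-negative cells for the 45 tested genes of the wider pathway, grouped by role, with circles for replicate 1 and open squares for replicate 2 joined by a line. Itgb8 lies furthest to the right in replicate 1, at 1.57, and many lines cross 0.

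The genes whose pattern over the 4 arrays was nearest to that of Tgfbr3, among 10199 others, were Klrb1f, a killer cell lectin-like receptor gene, Cdh13, which encodes T-cadherin, and Arnt2, a basic helix-loop-helix transcription factor gene. Their root mean square differences from it were 0.14, 0.15 and 0.15 on the log2 scale, after centring each gene on its mean. Klrb1f had 285 and 280.5 in Nrp1-positive replicates 1 and 2, against 659 and 530.3 in Nrp1-negative replicates 1 and 2. Nearest to Tgif1 were Tmem14a, Bcorl1 and Casp4, at 0.045, 0.09 and 0.09, and nearest to Tgfbr1 were Mapre2, Mtg2 and Itga4, at 0.0062, 0.01 and 0.02. Likeness over 4 arrays is a description of these arrays.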

How the data were processed

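Trizol-extracted RNA was biotin-labelled for 1-colour Affymetrix arrays, per the labels' protocols. The authors deposited linear signal intensities per probe set, and the submitters' processing notes name MAS5. Neither its version nor detection calls were found in these sources. The platform annotation listed 34945 of the 45101 probe sets with 1 gene and 932 with several, 9160 were unnamed here, and 64 controls were left out.

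All arrays were brought to one trimmed mean (2% off each end), and log2(intensity + 18.3) was analysed. The pseudocount was set at 0.25 of the mean of the 4 array medians. Fold changes therefore understate those of dim genes. The brighter probe sets, from percentile 50 of the mean over all 4 arrays, were tested (22519), and the brightest stood for its gene (10200 genes). The fit used limma 3.58.1 (R 4.3.3) with a two-sided moderated test and a mean-variance trend, and the code was tested on simulated data. Replicate numbers come from the titles. With the replicate block, 1 residual degree of freedom per probe set joined 9.00 from the variance prior, so calls rest mostly on probe sets of similar level. Arrays with the same number correlated more than arrays of the same group, and only 2 pairs exist. Figures were drawn with matplotlib 3.10.9.

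The members, lists and tests were chosen with earlier results of these data known. Named beside the members are pathway genes called by either fit, otherwise up to 2 per role with the largest difference of one sign, and the 3 genes of most similar pattern for the 3 members with the largest differences. Bmpr2, Tgfb1 and Tgfbi were named after their values were seen. Alternatives were another scaling, 2 other pseudocounts, other filters, the block, no trend, the conflicting array regrouped and each array left out.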

Additional observations from a re-analysis of the deposited data

How the results depend on the processing

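The replicate block decided the calls. The count of called probe sets was 0 without it, 46 with it, 140 with it and quantile normalisation, 24 with it and no filter, and 45 with it and the filter at percentile 65. It was 0 with the block and no mean-variance trend, where 1515 had an unadjusted p below 0.05 in limma. With each array left out it ranged from 0 to 3. Of the pathway genes, 1 (Itgb8) was called, with quantile normalisation and the block. The median difference over the member genes was 0.04 and ranged from 0.0099 to 0.22 with each array left out, fits that keep 1 array in a group and mix the replicate number with the group. The cause of these shifts was not tested. Tgfbr3 and Skil kept their sign under every scaling, pseudocount, probe set summary, regrouping and array left out that was run. Their groups did not overlap at the probe set that stands for the gene, so leaving out an array could not change the sign. Tgfbr1 and Tgif1 turned with the conflicting array counted as Nrp1-positive (-0.12 and -0.11), and Ski without Nrp1-negative replicate 2. Tgfbr2, Smad2, Smad3, Smad4 and Smad7 each turned with 2 of the 4 arrays left out in turn, Smad2 (0.06) and Smad7 (-0.08) also with the mean over probe sets, and Smad4 with quantile normalisation (0.0075) and with the conflicting array counted as Nrp1-positive (0.61).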
